A study of Mus musculus with 4 samples.

Results

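The genes described here are 9 members of the system that cuts and protects the extracellular matrix. They are the matrix metalloproteases Mmp2, Mmp7, Mmp9, Mmp12 and Mmp14, the related secreted protease Adamts1, and the protease inhibitors Timp1, Timp2 and Timp3. They were chosen by name from the 22180 genes of the array, as rows whose platform annotation gave exactly 1 symbol, and all 9 were found. Each gene had 1 row except Mmp7, which had 2 and was represented by the row with the higher mean over the 4 arrays. RNA was taken from whole pancreas at 8 weeks of age, after 5 days of repeated cerulein injections. This peptide acts like the gut hormone cholecystokinin and, in excess, injures acinar cells and causes acute pancreatitis. Every mouse received it into the abdomen at 100 µg/kg, 6 times a day on alternate days. The wild-type group (n = 2 arrays) carried no stated mutation, and the Ifrd1 null group (n = 2 arrays) was labelled null for Ifrd1, a gene for a transcriptional co-regulator. The null is labelled for the animal and not for a cell type. The source of the allele, the strain and the sex of the mice are not given in the sources used here, and untreated pancreas was not analysed here.

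Matrix metalloproteases are zinc enzymes made as inactive precursors, which become active when an inhibitory propeptide is removed. Mmp14 sits in the cell membrane and activates the precursor of the gelatinase Mmp2, a step in which Timp2 acts as a bridge. Tissue inhibitors of metalloproteases bind the active site, and Timp3 stays bound to the matrix and also inhibits Adam and Adamts enzymes. In the injured pancreas, stromal cells, macrophages, neutrophils and metaplastic epithelium are known sources of different members of the system.

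The DNA before the start of transcription was read for these genes from the RefSeq promoter table (GRCm38.p6), which held 7 of the 9 and not Mmp2 or Mmp9. The 250 bases before the most upstream listed start are printed for 4 genes whose wild-type and null arrays did not overlap, Mmp7 and Timp1 with higher and Mmp14 and Adamts1 with lower null values. Capitals mark matches on either strand to 3 motifs. The AP-1 motif searched for was TGAGTCA, bound by Fos and Jun dimers. For the TATA box the letters were TATAAA. For the GC box, bound by Sp1, the letters were GGGCGG. No matches of different motifs overlapped.
Mmp7 (chr9:7691840-7692089, plus strand): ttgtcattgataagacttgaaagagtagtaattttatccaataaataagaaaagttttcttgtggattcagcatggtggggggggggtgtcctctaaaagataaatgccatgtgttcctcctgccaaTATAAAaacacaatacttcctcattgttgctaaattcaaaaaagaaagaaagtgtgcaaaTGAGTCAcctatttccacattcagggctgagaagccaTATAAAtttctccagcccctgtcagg
Timp1 (chrX:20869916-20870165, plus strand): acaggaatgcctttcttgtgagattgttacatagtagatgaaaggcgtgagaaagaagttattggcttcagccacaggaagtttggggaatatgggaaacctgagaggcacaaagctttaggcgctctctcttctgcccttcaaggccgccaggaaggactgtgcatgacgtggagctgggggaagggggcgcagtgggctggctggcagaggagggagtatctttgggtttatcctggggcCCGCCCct
Mmp14 (chr14:54431348-54431597, plus strand): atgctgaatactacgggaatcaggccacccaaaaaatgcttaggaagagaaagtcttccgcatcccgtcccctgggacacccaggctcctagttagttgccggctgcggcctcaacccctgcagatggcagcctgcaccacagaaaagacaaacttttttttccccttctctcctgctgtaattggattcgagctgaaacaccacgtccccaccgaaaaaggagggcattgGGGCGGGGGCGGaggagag
Adamts1 (chr16:85803114-85803363, minus strand): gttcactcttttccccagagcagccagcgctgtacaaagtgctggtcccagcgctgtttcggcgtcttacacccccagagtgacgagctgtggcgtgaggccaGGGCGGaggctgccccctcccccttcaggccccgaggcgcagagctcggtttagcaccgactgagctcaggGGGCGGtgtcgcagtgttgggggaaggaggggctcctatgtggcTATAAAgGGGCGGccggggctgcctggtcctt
Mmp7 had an AP-1 match from base -63 to -57 (counted back from the start) and TATA matches beginning at -123 and -26. The other 3 printed sequences had no AP-1 match. Adamts1 had a TATA match beginning at -32 and 3 GC boxes, Mmp14 had 2 adjoining GC boxes beginning at -19 and -13, and Timp1 had 1 beginning at -8. Over the 32851 promoters of that length in the table, 4.46% held the AP-1 motif, 12.4% the TATA box and 32.7% the GC box. Among the genes not printed, Timp2 and Timp3 each had 1 GC box, and Mmp12 had an AP-1 match beginning at -44 of its second listed start. G and C made up 38.0% of the printed Mmp7 sequence, 54.4% of Timp1, 55.2% of Mmp14 and 65.6% of Adamts1. A match describes letters and does not show that a factor binds there.

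Levels are the deposited values per transcript cluster, read as log2, and a difference is the null mean minus the wild-type mean with limma's standard error (SE). The labels call the arrays biological replicates. The 4 array medians lay between 4.08 and 4.15, and pairs of arrays correlated with r from 0.986 to 0.991 over genes, which are not independent replicates. Ifrd1 stood at 9.04 and 9.07 in wild type and at 6.99 and 7.09 in the null. Its signal was 4.05-fold lower in the null, and both null values still lay above their array medians (4.15 and 4.13). Where its probes sit relative to the deletion was not analysed here. Xist was at 2.56 and 3.54 in wild type and at 10.2 and 9.58 in the null, and the Y-linked Uty was at 6.41 and 6.40 against 2.25 and 2.36. Genotype and sex as read from these genes cannot be told apart in any comparison below. The tissue label was checked against 9 acinar markers, all above the array medians, with Cpa1, a carboxypeptidase, at 13.6, 13.6, 13.4 and 13.7 in wild type 1 and 2 and null 1 and 2. Over all genes, 1 passed limma's adjusted p of 0.05 (0.00451% of 22180), and it was Uty. Ifrd1 (limma adjusted p = 0.138) and Xist (0.140) did not pass, so a gene that does not pass is not shown to be unchanged. With any 1 array left out, 0 genes passed.

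Of the 9 genes, 0 passed this threshold in limma, and 3 had an unadjusted p under 0.05, namely Timp1, Mmp14 and Mmp7, where the share over all genes was 6.91%. The wild-type and null arrays did not overlap for 5 of the 9. Mmp7 and Timp1 were higher in both null arrays, where the share of all genes was 16.1%, and Mmp14, Timp2 and Adamts1 were lower in both, where it was 19.7%. In either direction the share of all genes was 35.8%. The median difference over the 9 genes was -0.13, beside -0.01 over all genes and -0.07 over genes above the median level.

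**Figure D1:**
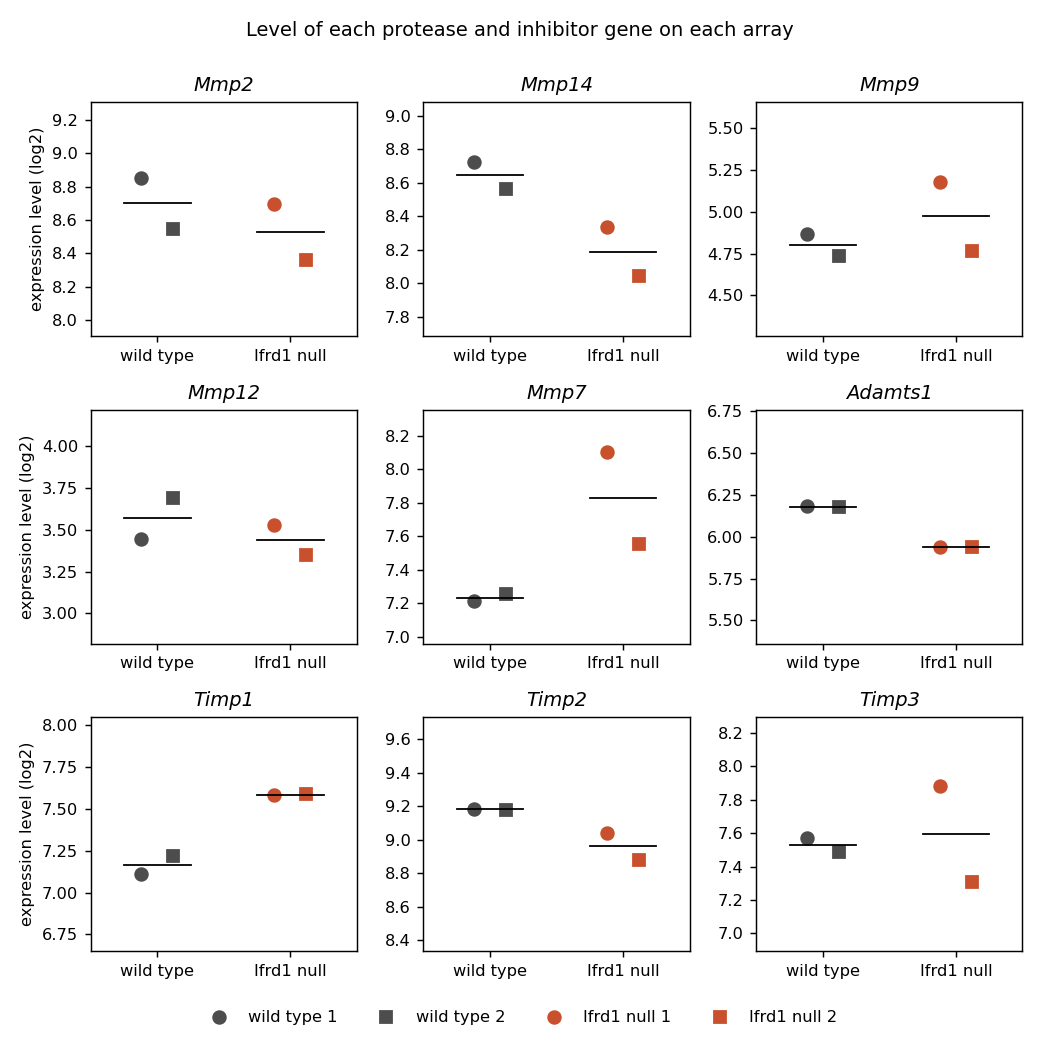
Level of each gene (log2) on each array, 1 panel a gene, with wild type in grey, Ifrd1 null in red, circles for replicate 1, squares for replicate 2 and a line at each group mean (n = 2). Every panel spans the same log2 range. The groups are separate for Mmp14, Mmp7, Adamts1, Timp1 and Timp2 and overlap for Mmp2, Mmp9, Mmp12 and Timp3.

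The membrane protease Mmp14 was at 8.73 and 8.57 in wild type and at 8.34 and 8.04 in the null. Both null arrays lay below both wild-type arrays, with the lowest value in null 2. The means were 8.65 ± 0.11 and 8.19 ± 0.21 (SD, n = 2 each), a difference of -0.46 ± 0.15 (SE), or 1.37-fold lower, with a 95% interval from -0.86 to -0.06. Limma gave an unadjusted p of 0.0333 and an adjusted p of 0.721, so Mmp14 did not pass. Mmp2, the gelatinase that Mmp14 activates, was at 8.85 and 8.55 in wild type and at 8.70 and 8.36 in the null. Null 1 fell between the wild-type arrays, and the gaps within each genotype (0.30 and 0.34) were larger than the difference between them, -0.17 ± 0.18 (limma adjusted p = 0.822).

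Markers of stellate cells and fibroblasts, the stromal cells in which Mmp2 and Mmp14 are known to be made, were mostly lower. Of 12 markers, 9 were lower in the null, near the share of genes above the median level, 67.3%. The median difference was -0.27 over the markers and -0.07 over those genes. Of the 12 markers 0 passed limma's adjusted threshold (1 at unadjusted p under 0.05, Fap). Their summed level was 11.9 and 11.8 (log2) in wild type and 11.9 and 11.4 in the null, and 0 of the 12 lay below the array median on all 4 arrays. Vim, an intermediate filament protein, was at -0.31 ± 0.18, Pdgfrb, a growth factor receptor of stromal cells, at -0.33 ± 0.12 and Fap, a membrane protease of activated fibroblasts, at -0.36 ± 0.13. Their part in the Mmp14 value was not tested. In whole tissue, fewer cells of a type and less RNA per cell cannot be told apart.

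Mmp9, the second gelatinase, known as a product of neutrophils and macrophages, was at 4.87 and 4.74 in wild type and at 5.18 and 4.77 in the null. Null 2 lay within the wild-type range and null 1 above it, a difference of 0.17 ± 0.18 (limma adjusted p = 0.818). Without null 1 the difference was -0.03. Neutrophil markers were higher in the null for 9 of 11 (median 0.17). Over all genes 10466 of 22180 were higher, and above the median level 3617 of 11090. Genes below that level were thus more often higher, and 9 of the 11 markers had a mean below it. Of these markers 0 passed limma's adjusted threshold (1 at unadjusted p under 0.05). That gene was Retnlg, a resistin-like protein of neutrophils, at 5.22 and 4.98 in wild type and 6.56 and 5.87 in the null, 1.11 ± 0.27. The summed neutrophil level was 7.65 and 7.37 in wild type and 8.00 and 7.66 in the null. Retnlg was the brightest marker in both null arrays and is part of this sum, which is not given without it. Of the 11 markers 7 lay below the array median on all 4 arrays, S100a8 and Mpo among them, and their part in the Mmp9 value was not tested.

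Mmp12, the elastase of macrophages, was at 3.45 and 3.69 in wild type and at 3.53 and 3.35 in the null. These values lay below the median of every array, so a signal above background is not shown. For comparison, 9.38% of 1088 olfactory receptor genes had a higher mean, and 3 Y-linked genes read between 2.25 and 3.03 in the null arrays. The groups overlapped, with a difference of -0.13 ± 0.14 (limma adjusted p = 0.828). Macrophage markers were lower for 12 of 15 (median -0.04), beside 67.3% of genes above the median level. Of these markers 0 passed limma's adjusted threshold (1 at unadjusted p under 0.05, Cd14, a coreceptor for bacterial lipopolysaccharide, at -0.44 ± 0.10).

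Mmp7, or matrilysin, is a small protease of glandular epithelium that is known to appear in acinar-to-duct metaplasia. It was at 7.21 and 7.25 in wild type and at 8.11 and 7.55 in the null. Both null arrays were above both wild-type arrays, and null 1 was the highest. The means were 7.23 ± 0.03 and 7.83 ± 0.39 (SD, n = 2 each), a difference of 0.60 ± 0.21 (SE), or 1.51-fold higher, with a 95% interval from 0.03 to 1.16. Limma gave an unadjusted p of 0.0420 and an adjusted p of 0.721. The difference was 0.32 without null 1 and 0.87 without null 2. An absolute difference as large was found for 1.48% of all genes, and a gap between null arrays as large as that of Mmp7 (0.55) for 8.27%.

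The second row of Mmp7 did not share this pattern. It was dim, at 3.12 and 3.54 in wild type and 3.18 and 3.22 in the null, and its difference was -0.13. The mean of both rows gave 0.23. Duct markers went the other way from the brighter row. Of 9, 8 were lower in the null (median -0.36), beside 67.3% of genes above the median level. Of these markers 0 passed limma's adjusted threshold (4 at unadjusted p under 0.05). Krt19, a duct keratin, was at -0.59 ± 0.12 and the chloride channel gene Cftr at -0.49 ± 0.11. The summed duct level was 13.5 and 13.5 in wild type and 13.4 and 13.4 in the null. Mmp7 is also a known product of Paneth cells of the gut. The summed level of 14 intestinal and Paneth markers was 8.94 and 8.01 in wild type and 8.03 and 7.87 in the null, and their part in the Mmp7 value was not tested. Of these markers 7 were higher and 7 lower in the null (median -0.03), and 6 lay below the array median on all 4 arrays. None passed limma's adjusted threshold (0 genes), and 2 higher and 2 lower markers had an unadjusted p under 0.05. The lower ones were Vil1, a microvillus protein, at -0.97 ± 0.25 and Slc5a1, a glucose transporter, at -0.59 ± 0.17, and the higher ones were Ang4, an angiogenin of Paneth cells, at 0.79 ± 0.21 and Defa24. The largest differences of the list were those of Agr2 (-1.77 ± 0.72) and Lgals4 (-1.67 ± 1.00), which were highest in wild type 1 (6.06 and 7.24). Ang4 lay below the array median on all arrays. Defa24, an alpha-defensin of the family whose precursors Mmp7 cleaves in mouse gut, was at 3.95 and 3.98 in wild type and 4.54 and 4.57 in the null, 0.59 ± 0.10 (limma adjusted p = 0.721). The wild-type values of Defa24 lay below the array medians, so its difference is not exact.

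Adamts1, a secreted protease with thrombospondin repeats that cleaves proteoglycans such as versican, was at 6.18 in both wild-type arrays and 5.94 in both null arrays. The null arrays held the same value to all deposited digits, as 4.10% of genes did, so their SD of 0 does not measure the spread between mice. The difference was -0.24 ± 0.10 (SE), or 1.18-fold lower, with a 95% interval from -0.51 to 0.02 (limma adjusted p = 0.722). Its substrate gene Vcan was at 5.71 and 5.75 in wild type and 5.77 and 5.14 in the null, and overlapped between genotypes (-0.27 ± 0.23).

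**Figure D2:**
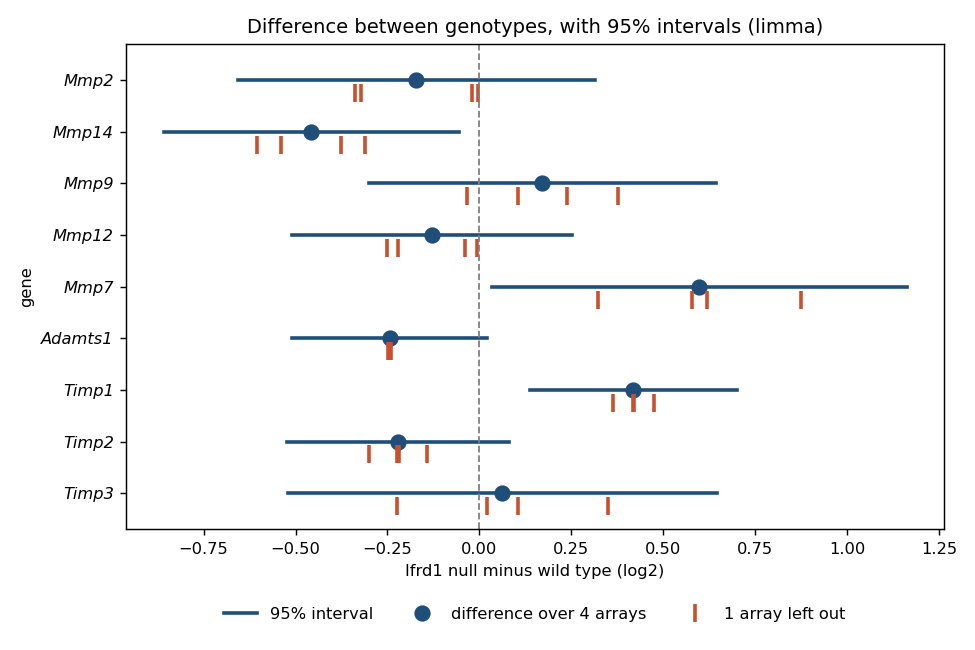
Ifrd1 null minus wild type (log2) for each gene, with a dot for the difference over 4 arrays, a bar for limma's 95% interval and ticks for the differences with 1 array left out. The intervals of Mmp14, Mmp7 and Timp1 do not reach 0, and the ticks of Mmp9 and Timp3 lie on both sides of it.

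The inhibitors did not share a direction. Timp1, the inducible inhibitor that is known to rise in inflammation and fibrosis, was at 7.11 and 7.22 in wild type and at 7.58 and 7.59 in the null. The null arrays agreed closely and both lay above wild type. The means were 7.17 ± 0.08 and 7.59 ± 0.0022 (SD, n = 2 each), a difference of 0.42 ± 0.11 (SE), or 1.34-fold higher, with a 95% interval from 0.14 to 0.70. Timp1 had the smallest unadjusted p of the 9 genes (limma, 0.0136), and its adjusted p was 0.721. With each array left out the difference lay between 0.36 and 0.47, and its sign could not change because the groups did not overlap.

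Timp1 lies on the X chromosome and is the only one of the 9 on a sex chromosome. Among X genes above the median level, 13 of 326 (3.99%) had a difference at least as large as Timp1, and among autosomal genes above it 136 of 10740 (1.27%). The median difference was -0.05 over those X genes and -0.07 over those autosomal genes. Genotype and sex cannot be told apart for it.

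Timp2, the inhibitor that takes part in Mmp2 activation, was at 9.18 on each wild-type array, and the null arrays read 9.04 and 8.88. Both null arrays were lower, by 0.22 ± 0.11 (SE) on average, with a 95% interval for null minus wild type from -0.52 to 0.08 (limma adjusted p = 0.746). Timp3, the matrix-bound inhibitor, was at 7.57 and 7.49 in wild type and at 7.88 and 7.31 in the null. The null arrays lay on either side of wild type, 0.57 apart, a gap as large as that of 7.44% of genes. The difference was 0.06 ± 0.22, and -0.22 without null 1 (limma adjusted p = 0.947 over all arrays).

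The balance of a protease and an inhibitor was followed as the protease value minus the inhibitor value on each array, for Mmp2, Mmp9 and Mmp14 against the 3 inhibitors (9 pairs). Such a value shows unequal change between genotypes and not which transcript is more abundant. Mmp7, Mmp12 and Adamts1 were not paired. Mmp7 was itself higher in both null arrays (0.60), so the direction of most pairs depends on which proteases were chosen. Mmp14 minus Timp1 was 1.62 and 1.34 in wild type and 0.75 and 0.45 in the null. The groups were separate, and the ratio was 1.84-fold lower in the null, with means of 1.48 ± 0.19 and 0.60 ± 0.21 (SD, n = 2 each). Mmp2 minus Timp1 was 1.74 and 1.33 in wild type and 1.11 and 0.77 in the null, 1.51-fold lower. Mmp14 minus Timp3 was 1.16 and 1.08 in wild type and 0.46 and 0.74 in the null, 1.43-fold lower. Mmp14 was thus lower relative to each of the 3 inhibitors in both null arrays, including Timp2 (-0.24).

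The gelatinase Mmp9 did not follow Mmp14. Mmp9 minus Timp2 was -4.32 and -4.44 in wild type and -3.86 and -4.11 in the null, 1.31-fold higher. Mmp2 minus Timp2 overlapped between genotypes (0.05), as did Mmp9 minus Timp1 (-0.25). In all, 5 of the 9 pairs were lower and 2 higher in both null arrays. Of all genes taken singly, 35.8% did not overlap in either direction, and the share over all pairs of genes was not computed. Mmp14 and Timp1 each separated alone, in opposite directions, so Mmp14 minus Timp1 had to separate. Mmp2 minus Timp3 was only narrowly lower, at 1.060 in wild type 2 and 1.054 in null 2. Mmp9 minus Timp3 was only narrowly higher, at -2.705 in wild type 1 and -2.701 in null 1. The pairs share genes and are not independent. With 2 arrays against 2, the exact two-sided permutation test cannot go below p = 0.33, which 7 pairs reached (0.429 after Benjamini-Hochberg adjustment over the 9 pairs), so no pair could pass.

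**Figure D3:**
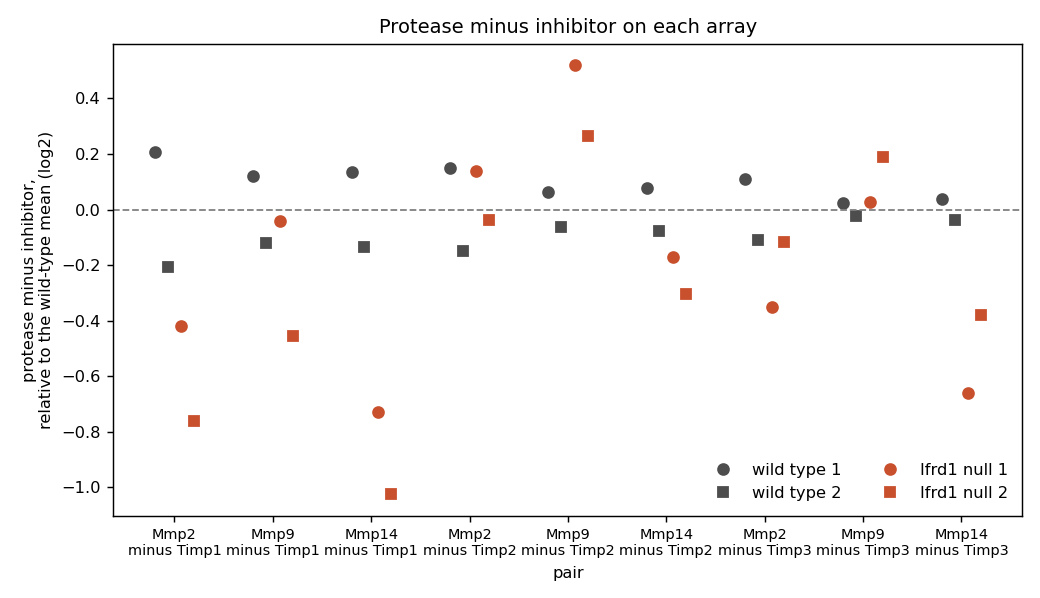
Protease minus inhibitor on each array (log2), relative to the wild-type mean of that pair, with wild type in grey, Ifrd1 null in red, circles for replicate 1 and squares for replicate 2. The null points of Mmp14 minus Timp1 lie farthest below the wild-type points, and those of Mmp9 minus Timp2 lie above them.

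The null arrays differed from each other in most of these genes. Of the 9, 7 were higher in null 1 than in null 2, by a median of 0.29 over all 9, where the median absolute gap between these arrays over all genes was 0.17. Timp1 (-0.003) and Adamts1 (0) were the exceptions. The median of 0.29 is signed and that of 0.17 is not. Only the gap of Timp1 was negative, and without signs the median over the 9 genes is also 0.29. The share of all genes higher in null 1 is not given here. The matrix genes went the same way: all 17 measured substrates were higher in null 1, by a median of 0.44, with Col1a1 at 10.3 and 10.4 in wild type and at 11.0 and 9.88 in the null. Macrophage markers (15 of 15) were higher in null 1 by a median of 0.65, B and plasma cell markers (6 of 6) by 1.56 and adipocyte markers (6 of 6) by 1.41, while acinar markers were lower in null 1 for all 9, by a median of 0.48. Against the wild-type mean the stellate list stood at -0.06 in null 1 and -0.48 in null 2, and the 9 genes at -0.003 and -0.22. The part of these cell types in the gaps was not tested.

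**Figure D4:**
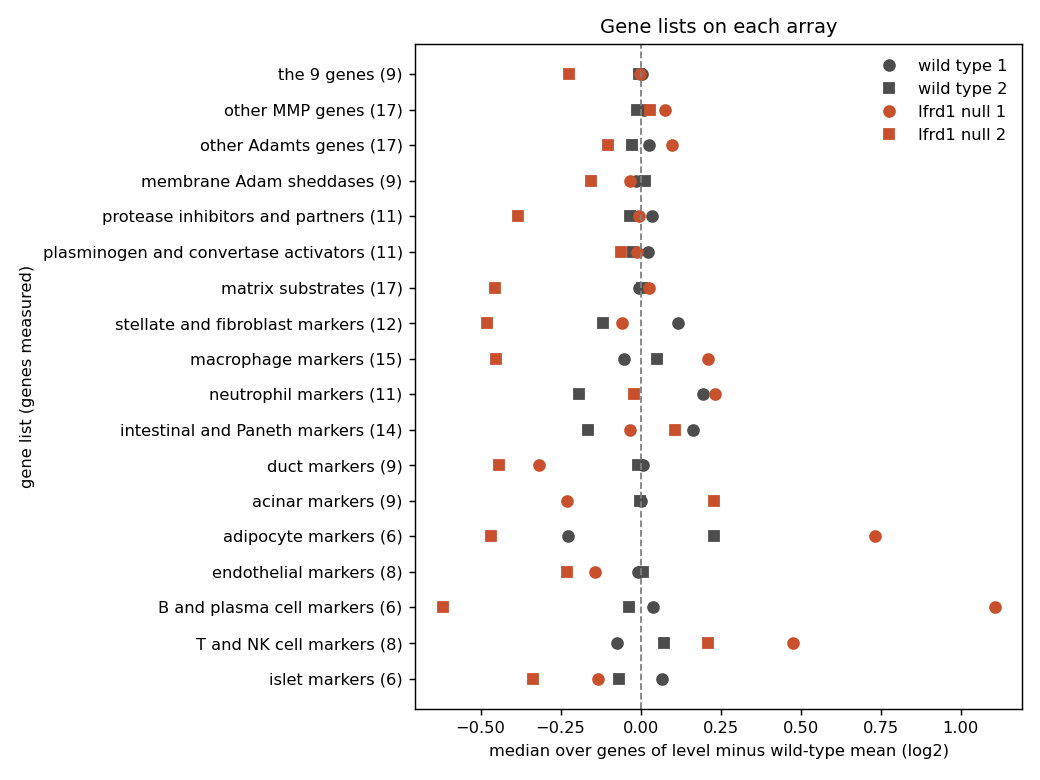
Median over the genes of each list of the level minus the wild-type mean (log2), on each array, with the number of genes measured in brackets, wild type in grey, Ifrd1 null in red, circles for replicate 1 and squares for replicate 2. Matrix, stellate and macrophage lists are lowest in null 2, and duct markers are lower in both null arrays.

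Other proteases of the same families were followed through lists. Of 17 other Mmp genes, 12 were higher and 5 lower in the null (median 0.08), and 0 passed limma's adjusted threshold or an unadjusted p of 0.05. Many of them were dim, with 9 of 17 below the array median on all 4 arrays. The mean of 13 of the 17 lay below the median level, where genes were more often higher in the null. Mmp19 was at -0.15 ± 0.15, the stromelysin Mmp10 at 0.22 ± 0.12 and the membrane-type Mmp16 at 0.37 ± 0.16. Mmp16 lay below the array median on all arrays (2.63 and 2.94 in wild type, 3.26 and 3.04 in the null), so its difference is not exact, and Mmp10 lay below it in wild type (4.05 and 3.86). Of 17 other Adamts genes, 8 were higher and 9 lower (median -0.01), again with 0 past either threshold in limma. Adamts9 was at -0.06 ± 0.17 (0.018 after quantile normalization and 0.025 after cyclic loess, so its sign turned), Adamts17 at -0.21 ± 0.10 and Adamts19, dim on all arrays, at 0.28 ± 0.11.

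The Adam sheddases, membrane proteases that release growth factors and cytokines, were lower for 6 of 9 (median -0.10). Of genes above the median level 67.3% were lower. Limma's adjusted threshold was passed by 0 of the sheddases (1 at unadjusted p under 0.05). That gene was Adam12, a protease of activated stroma, at 5.62 and 5.85 in wild type and 5.36 and 5.10 in the null, -0.50 ± 0.15. Adam17, which sheds tumour necrosis factor and is inhibited by Timp3, was at -0.28 ± 0.12, and Adam10, which cleaves Notch and cadherins, at -0.12 ± 0.11. Both were lower in both null arrays.

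**Figure D5:**
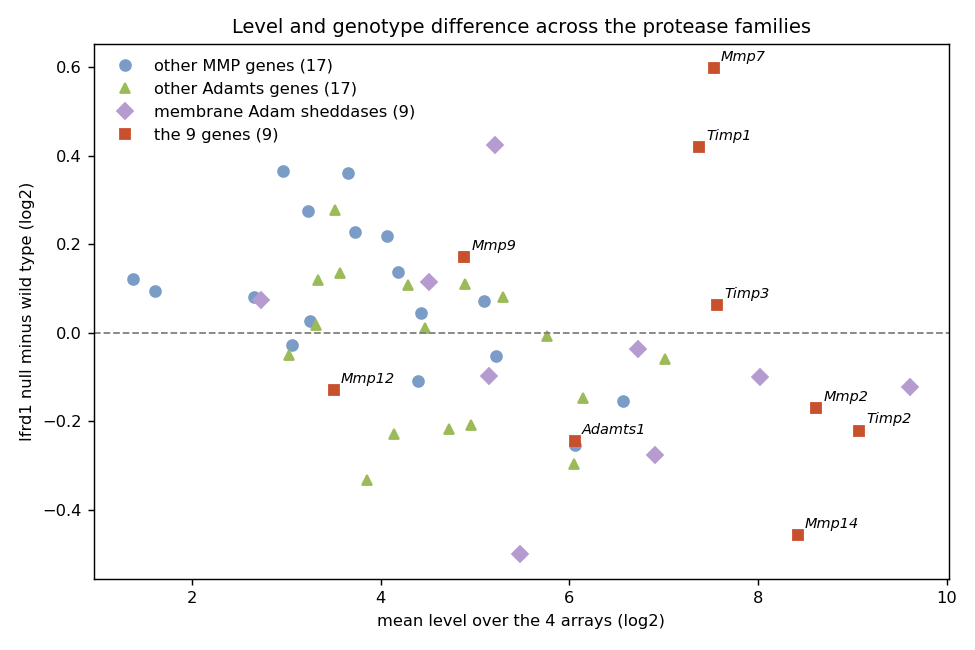
Ifrd1 null minus wild type (log2) against the mean level over the 4 arrays (log2), 1 point a gene, for the 9 named genes (red squares), other Mmp genes (blue circles), other Adamts genes (green triangles) and Adam sheddases (purple diamonds). Mmp7 lies highest, followed by the sheddase Adam8 (0.423) and Timp1 (0.419), Mmp14 and Adam12 lie lowest, and most other Mmp genes lie at low levels.

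Upstream of the metalloproteases, the plasminogen system and the proprotein convertases remove propeptides. The list of 11 measured genes also held inhibitors, a receptor and meprins, so its counts are not counts of activators alone. Of the 11 genes, 7 were lower and 4 higher (median -0.02), and 0 passed limma's adjusted threshold (1 at unadjusted p under 0.05). That gene was Plau, urokinase, which converts plasminogen to plasmin. It was at 7.07 and 7.02 in wild type and 6.42 and 6.16 in the null, -0.76 ± 0.13 or 1.69-fold lower (limma adjusted p = 0.721). The tissue activator Plat was also lower in both null arrays (-0.26 ± 0.13). Furin, the convertase that processes Mmp14, was at -0.05 ± 0.11 (0.023 after quantile normalization and 0.043 after cyclic loess, so its sign turned), and the urokinase receptor Plaur was at -0.02 ± 0.10.

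Among further inhibitors and binding partners, 10 of 11 were lower in the null (median -0.22), and 0 passed limma's adjusted or unadjusted threshold. Sparc, a collagen-binding matrix protein, was at -0.27 ± 0.13 and Thbs1, thrombospondin 1, at -0.63 ± 0.38. Reck, a membrane-anchored inhibitor of metalloproteases, was at -0.10 ± 0.11. Of 17 matrix substrates, 13 were lower (median -0.15), and 0 passed limma's adjusted threshold (3 at unadjusted p under 0.05). These were the laminin chain Lama2 at -0.38 ± 0.11, the collagen IV chain Col4a2 at -0.40 ± 0.12 and nidogen 1, Nid1, at -0.40 ± 0.13. Other laminin and collagen IV chains of the list overlapped between genotypes, with Col4a1 at -0.23 ± 0.19, Lamb1 at -0.20 ± 0.18 and Lamc1 at -0.15 ± 0.17. The fibrillar collagen Col1a1 was at 0.09 ± 0.39 and the proteoglycan Bgn at -0.19 ± 0.15. Of genes above the median level, 67.3% were lower in the null, against 52.7% of all genes, which bears on every count of lower genes in a list of bright genes. Genes below that level were more often higher, which bears likewise on counts of higher genes in a list of dim genes.

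Further marker lists differed in either direction. Of the 9 genes, 4 were higher and 5 lower in the null, so any list shares its direction with some member. Such a match links no cell type to a member. Of 8 markers of T and NK cells, 8 were higher in the null (median 0.30), and 0 passed limma's adjusted threshold (2 at unadjusted p under 0.05). These were the granule protein Nkg7 at 0.49 ± 0.11 and Lat at 0.57 ± 0.14, whose wild-type values lay below the array medians. The summed level was 7.30 and 7.64 in wild type and 8.11 and 7.60 in the null, and 3 of the 8 lay below the array median on all 4 arrays. The mean of 5 of the 8 lay below the median level, where genes were more often higher in the null. B and plasma cell markers were higher for 6 of 6 (median 0.21), with 0 at an unadjusted p under 0.05 in limma and with summed levels of 8.09 and 8.04 in wild type and 9.36 and 7.39 in the null. Endothelial markers were lower for 7 of 8 (median -0.15), beside 67.3% of genes above the median level. Of these markers 0 passed limma's adjusted threshold and 2 had an unadjusted p under 0.05. These were Plvap, a protein of endothelial diaphragms, at -0.60 ± 0.15 and Emcn, a mucin of venous and capillary endothelium, at -0.36 ± 0.10. The summed endothelial level was 9.50 and 9.43 in wild type and 9.24 and 9.19 in the null. Islet markers were lower for 4 of 6 (median -0.25), with 0 past the adjusted threshold in limma and 3 at an unadjusted p under 0.05, among them the islet hormones Iapp at -0.65 ± 0.15 and Ins2 at -0.38 ± 0.10. Adipocyte markers were higher for 3 of 6 (median 0.18) and acinar markers for 4 of 9 (median -0.01), with 0 at an unadjusted p under 0.05 in limma in either list. The part of these cells in the members' values was not tested.

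The gene with the pattern most like each member was sought among the other 194 genes of the lists, by the mean absolute difference over the 4 arrays after each gene was centred on its own mean. For Mmp14 it was Nid1 (0.04), at 9.69 and 9.55 in wild type and 9.32 and 9.13 in the null. For Mmp2 it was Pcolce, an enhancer of procollagen processing (0.04), for Timp3 the collagen chain Col5a1 (0.03) and for Mmp12 the laminin chain Lamc1 (0.04). Mmp9 lay nearest to Adam19 (0.03), Timp2 to Adamts13 (0.02) and Adamts1 to Adamts17 (0.04). Timp1 and Mmp7 had more distant nearest genes, Pax5 (0.07), a B cell transcription factor, and Lat (0.11), a T cell receptor adaptor. With 4 arrays many genes lie this close, so these are descriptions only.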

How the data were processed

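Per the labels' protocols, biotin-labelled total RNA of whole pancreas was measured on Affymetrix arrays. The deposited values are the authors' processed values per transcript cluster, used here as log2. The log base, background correction, probe summary and normalization are not given in the sources used here, and the log2 scale was inferred from their range (0.218 to 13.9), so fold changes rest on it. Of 41345 rows, 23521 had 1 symbol in the platform annotation, giving 22180 genes (row of highest mean per gene), with no filter on dim genes.

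Genotypes were compared with limma 3.58.1 (lmFit, eBayes) in R 4.3.3 over all genes, 2 arrays against 2, without covariates, with two-sided p-values adjusted by Benjamini-Hochberg (threshold 0.05). The number of arrays limits the precision. The fit was tested on simulated data. Chromosomes and promoters came from RefSeq tables of GRCm38.p6. The members and lists were chosen with earlier results of these data known, and 200 of 215 listed symbols were matched. The naming rule took the 9 members, Ifrd1, Xist and Uty, of each list the gene of highest mean and the 2 of smallest unadjusted p, and each member's nearest gene, and the text gives those that bear on a member; Adam8, Agr2, Lgals4, Slc5a1, Ang4, Col4a1, Lamb1, Lamc1, Vcan, Reck, Plaur, Col1a1, S100a8 and Mpo were added after their values were seen. Alternatives were other normalizations, a replicate block, other eBayes settings, filters, row choices and leaving out each array.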

Additional observations from a re-analysis of the deposited data

How the results depend on the processing

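Across 13 alternatives and the 9 genes, 0 of 107 values passed limma's adjusted threshold (adjusted p at least 0.473), and 3 changed sign. The replicate block, the eBayes settings and the gene filters left each difference unchanged, as did the mean of all rows except for Mmp7. Signs could therefore not change under these alternatives. Mmp7 was -0.13 with its dimmer row, an alternative chosen after seeing the data. With 1 array left out, where the lone array of a genotype is assumed to vary like the others, Mmp9 ranged from -0.035 to 0.38 and Timp3 from -0.22 to 0.35, both lowest without null 1, and the cause was not tested. Mmp14 lay between -0.60 and -0.31, Mmp7 between 0.32 and 0.87 and Timp1 between 0.36 and 0.47, and Mmp2 minus Timp2 ranged from -0.10 to 0.20. The groups of Mmp14, Mmp7, Timp1, Timp2 and Adamts1 did not overlap, so leaving out an array could not change their signs. The genes past the threshold numbered 4 with quantile normalization, 5 with arrays centred on their medians, 4 with cyclic loess, 5 with trend and robust eBayes, 0 among genes above the median level, 0 without X and Y genes and 0 to 0 with each array left out (limma, 1301 to 2232 at unadjusted p under 0.05). With the replicate number as a block they numbered 4, and 0 of the 9 genes passed. The replicate differences of the 2 genotypes were nearly uncorrelated over genes (r = -0.04). With 1 such difference for each genotype, this cannot show whether the titles' numbers pair the samples. Signs also turned for Adamts9 (0.018 with quantile normalization and 0.025 with cyclic loess), Furin (0.023 and 0.043), Clu (0.0046 and 0.015) and Csf3r (-0.048 with centred arrays). Of the pairs, 5 to 7 were lower in every null array under the alternatives run. Leaving out an array or centring arrays could not lower this count, and averaging rows changed no gene of a pair. Quantile normalization and cyclic loess, which could lower it, each gave 6. Mmp12 and most other Mmp genes are limited by signal near the dim end of the arrays.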

Other observations

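Identical values occurred on both null arrays for 909 genes (4.10%) and on both wild-type arrays for 653 genes (2.94%), Adamts1 among the former. Ang4, an angiogenin of Paneth cells chosen after its values were seen, was at 1.74 and 1.55 in wild type and at 2.18 and 2.70 in the null, below the median of every array.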
